A study of Mus musculus with 2 samples.

Results

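The let-7 family loci were described in microRNA-seq of the embryonic mouse heart. Members were the rows of the deposited gene tables whose identifier maps to a symbol starting with Mirlet7, or to Mir98, which gave 10 of 1973 rows. A further 2 loci, Mirlet7e and Mirlet7f-1, have no row of their own and were read from the opposite-strand counts of Gm25927 and Gm24111, gene models that lie across them on the other strand. This made 12 loci. Of these, 6 carry a mature sequence found in no other hairpin of the RefSeq miRNA table and 6 carry one that has a copy there. The rest of the genome was not searched for copies. The samples were healthy hearts of the strain B6NCrl at embryonic day 13.5, dissected from embryos of both sexes and pooled, with no treatment or genetic change named in the labels. The design has 1 group of 2 libraries from separate biosamples of 1 donor record. No condition can be compared, and values below describe levels and their spread between the 2 libraries.

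Let-7 miRNAs are short RNAs that pair through their seed, bases 2 to 8, with messages such as Lin28a, Hmga2 and Ras family transcripts and lower their output. Each is cut from a hairpin precursor, and the protein LIN28 blocks that step in early embryonic cells, so mature let-7 accumulates as tissues differentiate. In the heart the family is known to accumulate toward birth as cardiomyocytes mature. Mammalian genomes hold several let-7 genes, some alone and some clustered with miR-99, miR-100 or miR-125 genes, an arrangement shared with other animals.

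The mature strands are shown because the differences between them decide which locus a read can be given to. Sequences are from RefSeq (GRCm38.p6, the mm10 build), 5′ to 3′, with the seed in capitals. All 12 hairpins matched. The table has no 5p entry under Mirlet7a-2, and its hairpin holds the let-7a sequence.
let-7a-5p (Mirlet7a-1 and Mirlet7a-2): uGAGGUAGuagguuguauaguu
let-7c-5p (Mirlet7c-1 and Mirlet7c-2): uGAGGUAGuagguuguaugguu
let-7f-5p (Mirlet7f-1 and Mirlet7f-2): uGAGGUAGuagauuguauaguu
let-7b-5p (Mirlet7b): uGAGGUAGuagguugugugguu
let-7d-5p (Mirlet7d): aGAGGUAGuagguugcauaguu
let-7e-5p (Mirlet7e): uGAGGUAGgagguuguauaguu
let-7g-5p (Mirlet7g): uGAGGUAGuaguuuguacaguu
let-7i-5p (Mirlet7i): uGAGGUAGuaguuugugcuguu
miR-98-5p (Mir98): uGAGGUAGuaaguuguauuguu

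All 9 mature miRNAs are 22 nucleotides long and share 1 seed, so they form 1 seed group. They were identical at 14 of 22 positions, and apart from position 1 no position before 9 varied. Positions are counted from 1 at the 5′ end, and changes are given from let-7a. Let-7c differs by A19G, let-7e by U9G and let-7f by G12A. Let-7b differs by A17G and A19G, and let-7d by U1A and U16C. Let-7g differs by G12U and U18C, and miR-98 by G11A and A19U. Let-7i is the most distant from let-7a, with G12U, A17G, U18C and A19U. Of the 36 pairs, 4 differ at a single base: let-7a with let-7c, let-7e and let-7f, and let-7b with let-7c. The widest pair, let-7d and let-7i, differs at 6 positions.

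**Figure D1:**
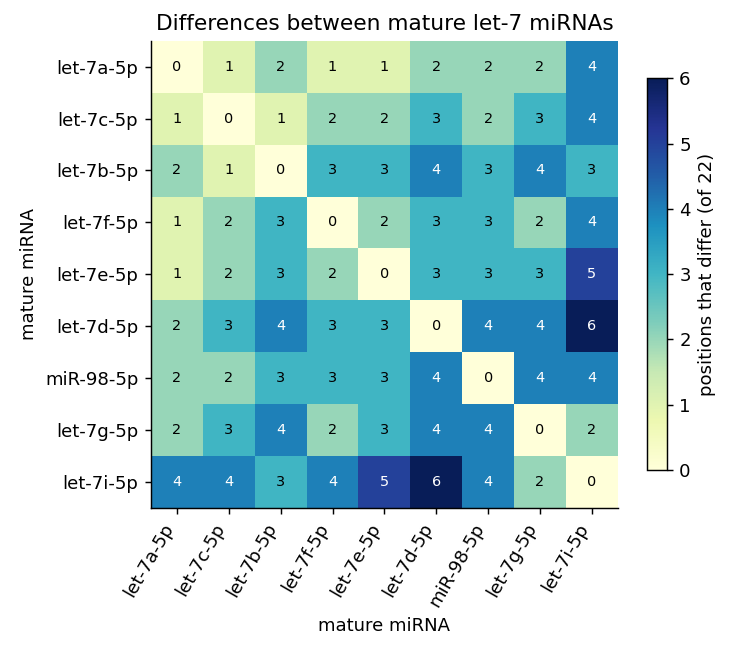
Number of positions, of 22, at which each pair of the 9 mature let-7 miRNAs differs; both axes list the miRNAs and darker cells differ more. Let-7a lies 1 base from let-7c, let-7e and let-7f, and let-7i lies at least 2 bases from every other member.

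The loci are spread over 7 chromosomes of mm10. Mirlet7g (chr9:106178840-106178927) lies in an intron of Wdr82, a subunit of a histone methyltransferase complex. Mirlet7i (chr10:122985640-122985724) lies in an exon of 1 transcript and an intron of another of D630033A02Rik, a transcribed processed pseudogene. On chromosome 13, Mirlet7d (chr13:48536012-48536114), Mirlet7f-1 (chr13:48537829-48537917) and Mirlet7a-1 (chr13:48538179-48538272) are exonic in the long noncoding RNA 6720427I07Rik. Mirlet7c-2 (chr15:85706603-85706697) and Mirlet7b (chr15:85707319-85707403) lie in exons of the noncoding transcript Lncppara. Mirlet7f-2 (chrX:151912346-151912428) and Mir98 (chrX:151913214-151913321) lie in introns of Huwe1, a ubiquitin ligase gene. Mirlet7a-2 (chr9:41536716-41536811) lies in introns of the noncoding gene 3110039I08Rik, Mirlet7c-1 (chr16:77599657-77599750) in introns of Mir99ahg, and Mirlet7e (chr17:17830352-17830444) in introns of Spaca6, a gene of sperm-egg fusion.

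Replicate 1 held 12136246 reads and replicate 2 held 12282789, of which 5569959 and 6039005 fell in a miRNA row in sense. Levels are counts per 1000000 of these sense totals (CPM). They are not divided by length. The 5p mature strands of the family all have 22 nucleotides, and the strands from the other arm have 21 or 22. Reads that map to several places form a class of their own, 26.9% of reads in replicate 1 and 28.0% in replicate 2, and the gene rows are assumed to leave them out, although no label or file header says so. Markers of the tissue were present: the sum of 5 cardiomyocyte miRNAs was 50724 and 53395 CPM, led by Mir208b, while Mir1a-1 and Mir133a-1 stayed below 5 CPM. The smooth muscle markers Mir143 and Mir145a summed to 85136 and 93532 CPM, above the cardiomyocyte sum. Epithelial markers summed to 1544 and 1189 CPM and skeletal muscle markers to 83.3 and 118 CPM. The leukocyte marker Mir223 held 441 and 310 CPM. The endothelial miRNA Mir126a held 74876 and 66025 CPM, and of 2 neural markers with a row Mir124a-1 held no count in either library and Mir137 held 83.1 and 52.7 CPM. Copies of the marker sequences at other loci were not looked up. If multi-mapping reads are left out, the low rows of Mir124a-1, Mir1a-1 and Mir133a-1 therefore do not show that these miRNAs were absent. Levels are averages over all cells of the heart, in which fewer cells of a type and less RNA per cell cannot be told apart.

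The let-7 family was among the abundant miRNAs of the heart, and nearly all of its counts in these rows came from loci of unique sequence. If multi-mapping reads are left out, reads that fit several loci are missing from the copied rows. The split between unique and copied loci then describes these rows and not the make-up of the mature family. The 10 rows took 10.23% of sense counts in replicate 1 (exact Clopper-Pearson 95% interval 10.20 to 10.25) and 9.61% in replicate 2 (9.59 to 9.64). The mean was 9.92% ± 0.433 (SD, n = 2). Within the family, the 5 unique rows held 98.7% of counts in replicate 1 (98.63 to 98.69) and 98.8% in replicate 2 (98.75 to 98.81). Intervals reflect counting alone, because PCR copies of a molecule are counted as separate reads.

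The highest members were Mirlet7g and Mirlet7i, both of unique sequence. Each is a single gene with no other miRNA row that starts within 10000 bases on its strand. Mirlet7g held 226338 counts (40635 CPM) in replicate 1 and 259035 counts (42894 CPM) in replicate 2. Mirlet7i held 239443 counts (42988 CPM) and 220996 counts (36595 CPM). The order of these loci was not the same in the libraries: Mirlet7i was above Mirlet7g in replicate 1 and below it in replicate 2. The mean log2 ratio of Mirlet7g over Mirlet7i was 0.07 ± 0.219, so their levels did not differ beyond the spread. Together they made up 81.8% and 82.7% of the sense counts of the family. These mature strands differ from each other by G17A and U19A, counted from let-7i to let-7g.

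Mirlet7d, the only member whose mature strand starts with A, was next in level. It held 62374 counts (11198 CPM) in replicate 1 and 60656 counts (10044 CPM) in replicate 2, rank 20 of all rows in both libraries. Mirlet7i exceeded it 3.74-fold (log2 1.90 ± 0.0533). With Mirlet7d added, 3 loci held 92.7% and 93.1% of the sense counts of the family.

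Mirlet7e, read from opposite-strand counts, and Mir98 followed at similar levels. Mirlet7e held 28082 counts (5042 CPM) and 27767 counts (4598 CPM), and the row of Gm25927 that lies across it held no sense count in either library. Mir98 held 25848 counts (4641 CPM) and 25005 counts (4141 CPM). Mirlet7e was slightly above Mir98 (log2 0.14 ± 0.0223), a small step of the same sign in both libraries and larger than its spread. Mirlet7d exceeded Mirlet7e 2.20-fold (log2 1.14 ± 0.0170).

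Mirlet7b was the lowest locus of unique sequence. It held 7921 counts (1422 CPM) and 7733 counts (1281 CPM), 3.25-fold below Mir98 (log2 ratio of Mir98 over it 1.70 ± 0.00937). Mirlet7g exceeded it 30.9-fold (log2 4.95 ± 0.162). The unique loci thus spanned a wide range among themselves, and both libraries gave Mirlet7d, Mirlet7e, Mir98 and Mirlet7b in the same order.

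Of the loci with copies, Mirlet7f-2 stood apart from the other members. It held 5529 counts (993 CPM) and 5219 counts (864 CPM), or 72.5% and 73.6% of the counts of the 5 copied rows. Mirlet7b exceeded it 1.46-fold (log2 0.54 ± 0.0343), so even the highest copied locus lay below the lowest unique one in both libraries. Mirlet7a-2, the nearest of the other copied loci, lay 8.14-fold below Mirlet7f-2 by the mean log2 ratio (3.03 ± 0.0826). Mirlet7a-2 held 647 counts (116 CPM) and 662 counts (109.6 CPM), and Mirlet7c-1 held 631 counts (113 CPM) and 555 counts (91.9 CPM). These loci did not differ beyond the spread (log2 0.14 ± 0.153).

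Mirlet7a-1 held 552 counts (99.1 CPM) in replicate 1 and 460 counts (76.2 CPM) in replicate 2. Mirlet7f-1, read from the opposite strand of Gm24111, held 553 counts (99.3 CPM) and 450 counts (74.5 CPM), against 1 sense count of that row in each library. Their log2 ratio was 0.01 ± 0.0240, within the spread. Mirlet7c-2 was the lowest member at 264 counts (47.4 CPM) and 199 counts (33.0 CPM). Each of these loci was higher in replicate 1. Of the 11 steps between neighbours in the order of all 12 loci, 8 were larger than their spread and had 1 sign in both libraries. The 3 that were not are Mirlet7g with Mirlet7i, Mirlet7a-2 with Mirlet7c-1, and Mirlet7a-1 with Mirlet7f-1. The order was taken from the mean levels in the same libraries, so positive mean steps are built in. These counts of steps are a description and not a test. Steps that involve copied loci compare rows only, since multi-mapping reads may be missing from them.

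**Figure D2:**
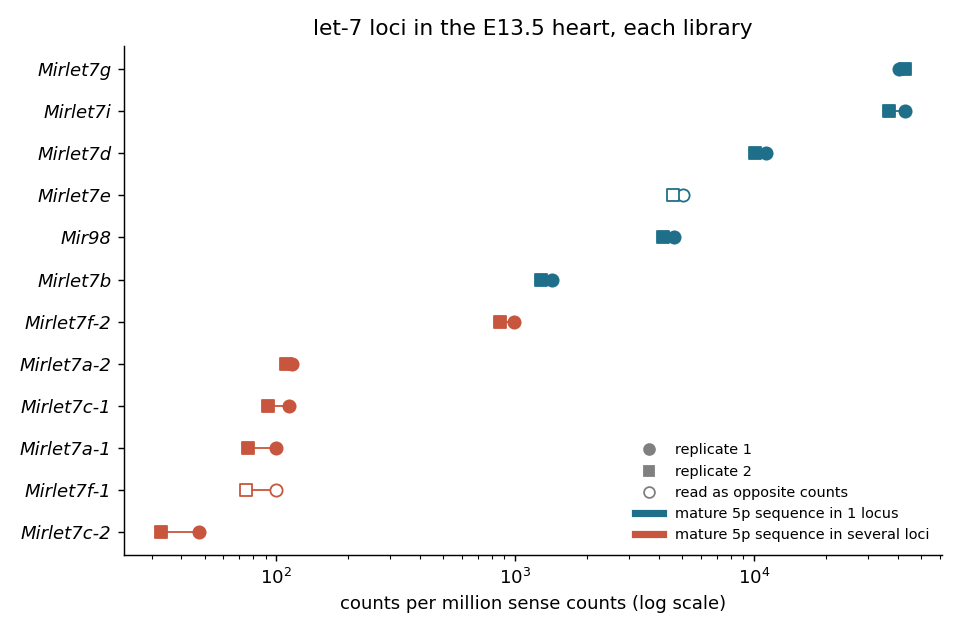
Level of each of the 12 let-7 loci in CPM on a log axis, with circles for replicate 1, squares for replicate 2 and open symbols for loci read from opposite-strand counts. Mirlet7g and Mirlet7i lead between 36595 and 42988 CPM, the unique loci (blue) lie at 1281 CPM or more and the copied loci (red) at 993 CPM or less.

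The classes of the rule did not overlap. In replicate 1 the unique rows ran from 1422 to 42988 CPM and the copied rows from 47.4 to 993 CPM. In replicate 2 they ran from 1281 to 42894 CPM and from 33.0 to 864 CPM. The median of the unique rows was 103-fold above that of the copied rows on the log2(CPM + 1) scale, a difference of 6.69 ± 0.10 (SD, n = 2). No test is given, since the smallest p that 2 libraries allow in an exact permutation of signs is 0.5. In these tables, counts at copied loci are lower bounds on the reads of the mature miRNA if the multi-mapping reads are indeed left out. This does not hold for CPM, because the sense total would lack such reads as well. All 6 copied loci together held 8176 and 7545 counts, while the multi-mapping class held 3263825 and 3436774 reads, 399 and 456 times as many. How many of those reads are let-7 is not analysed here, so the order of let-7a, let-7c and let-7f against the other members cannot be read from these rows.

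The sequence around the mature strand differs among the copies, and is shown because it sets how long a read must be to fit 1 copy only. In these stretches of the RefSeq hairpins the mature strand is in capitals, with 5 bases on each side.
Mirlet7f-2: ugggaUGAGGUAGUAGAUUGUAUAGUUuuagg
Mirlet7f-1: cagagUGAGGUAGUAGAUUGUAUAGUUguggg
Mirlet7a-1: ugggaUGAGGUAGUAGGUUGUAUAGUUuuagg
Mirlet7a-2: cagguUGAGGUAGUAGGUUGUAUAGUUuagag
Mirlet7c-2: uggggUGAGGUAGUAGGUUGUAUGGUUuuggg
Mirlet7c-1: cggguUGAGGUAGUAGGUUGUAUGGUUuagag

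The let-7f loci share a run of 22 nucleotides over the mature strand and first differ at the next base (U23G from Mirlet7f-2 to Mirlet7f-1). The let-7a loci share 23 nucleotides and first differ at U24A from Mirlet7a-1 to Mirlet7a-2. The let-7c loci share 23 as well and first differ at U24A from Mirlet7c-2 to Mirlet7c-1. Levels within each pair were unequal beyond the spread. Mirlet7f-2 exceeded Mirlet7f-1 10.7-fold (log2 3.41 ± 0.148), Mirlet7c-1 exceeded Mirlet7c-2 2.54-fold (log2 1.35 ± 0.150), and Mirlet7a-2 exceeded Mirlet7a-1 1.30-fold (log2 0.37 ± 0.207).

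The strands cut from the other arm of the hairpin, called 3p, had no copy in another hairpin of the RefSeq table at 10 of the 12 loci. The exceptions were Mirlet7a-1 and Mirlet7c-2, which share 1 3p sequence, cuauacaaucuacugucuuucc, and a run of 26 nucleotides around it. Both strands of these loci therefore have a copy elsewhere. Mirlet7f-1, whose 3p strand has none, lay at the level of Mirlet7a-1. The tables do not separate arms, and the part of the 3p strands in these counts was not tested. The longest run shared with any of the other 1004 hairpins of the RefSeq table was 14 nucleotides for Mirlet7d, 17 for Mirlet7e and Mir98, and 19 for Mirlet7b, Mirlet7g and Mirlet7i. It was 22 for both let-7f loci, 23 for Mirlet7a-2 and Mirlet7c-1, and 26 for Mirlet7a-1 and Mirlet7c-2. Mirlet7b and Mirlet7g each share 19 nucleotides with another hairpin, and their levels differed 30.9-fold. A relation of level to this length was not tested.

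**Figure D3:**
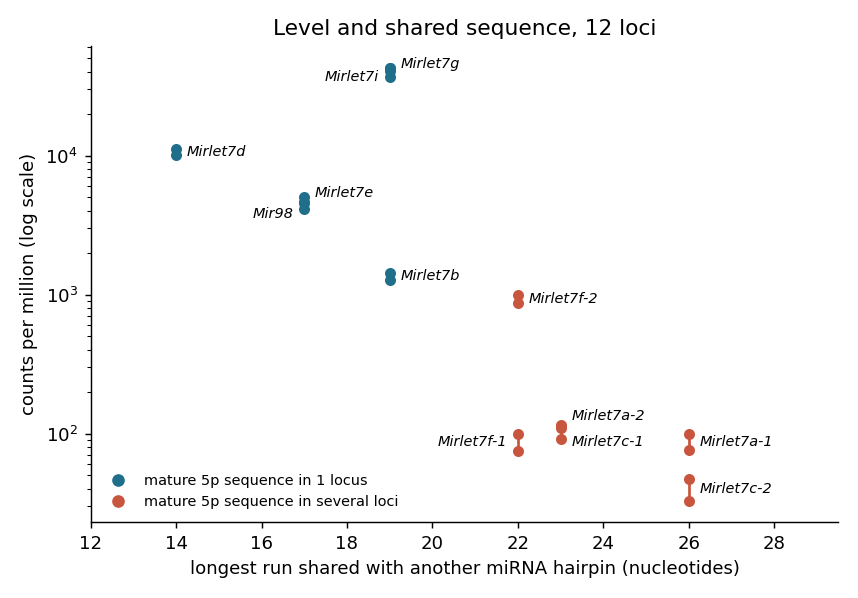
Level in CPM (log axis, both libraries as joined points) against the longest run in nucleotides that each locus shares with another miRNA hairpin of the RefSeq table. Loci with a run of 19 or less lie at 1281 CPM or more, and those with 22 or more lie at 993 CPM or less.

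Most let-7 loci lie in clusters whose members can come from 1 primary transcript, which sets loci side by side that may share transcription. Primary transcripts were not measured here. Each of the 5 copied rows lay below the unique miRNA nearest to it in its cluster, in both libraries. Mirlet7a-1 was 121-fold below Mirlet7d (log2 -6.91 ± 0.154), and Mirlet7f-1 in the same host gene was 122-fold below it (log2 -6.93 ± 0.178). Mirlet7c-2 was 33.3-fold below Mirlet7b (log2 -5.06 ± 0.255), 716 bases away. Mirlet7f-2 was 4.73-fold below Mir98 (log2 -2.24 ± 0.0249), 868 bases away, the smallest of these gaps.

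The other clusters join let-7 to the miR-99, miR-100 and miR-125 families. Mir99a held 66247 and 64908 CPM, and Mirlet7c-1, 721 bases away, was 636-fold below it (log2 -9.31 ± 0.191). Mir100 held 6579 and 6245 CPM, and Mirlet7a-2, 5291 bases away, was 56.3-fold below it (log2 -5.82 ± 0.00552). The miR-125b members of these clusters have identical mature strands and were themselves low. Mir125b-1 held 384 and 306 CPM, and Mir125b-2 held 549 and 531 CPM. Mirlet7a-2 was 3.02-fold below Mir125b-1 (log2 -1.59 ± 0.174), and Mirlet7c-1 was 5.25-fold below Mir125b-2 (log2 -2.39 ± 0.177).

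In the cluster on chromosome 17 no mature strand has a copy. Mir99b held 20351 and 17294 CPM, and Mir125a held 3430 and 2866 CPM. Mirlet7e lay between them, 3.90-fold below Mir99b (log2 -1.96 ± 0.0721) and 1.54-fold above Mir125a (log2 0.62 ± 0.0892). Unique miRNAs of 1 cluster thus also differed in level beyond the spread between the libraries.

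**Figure D4:**
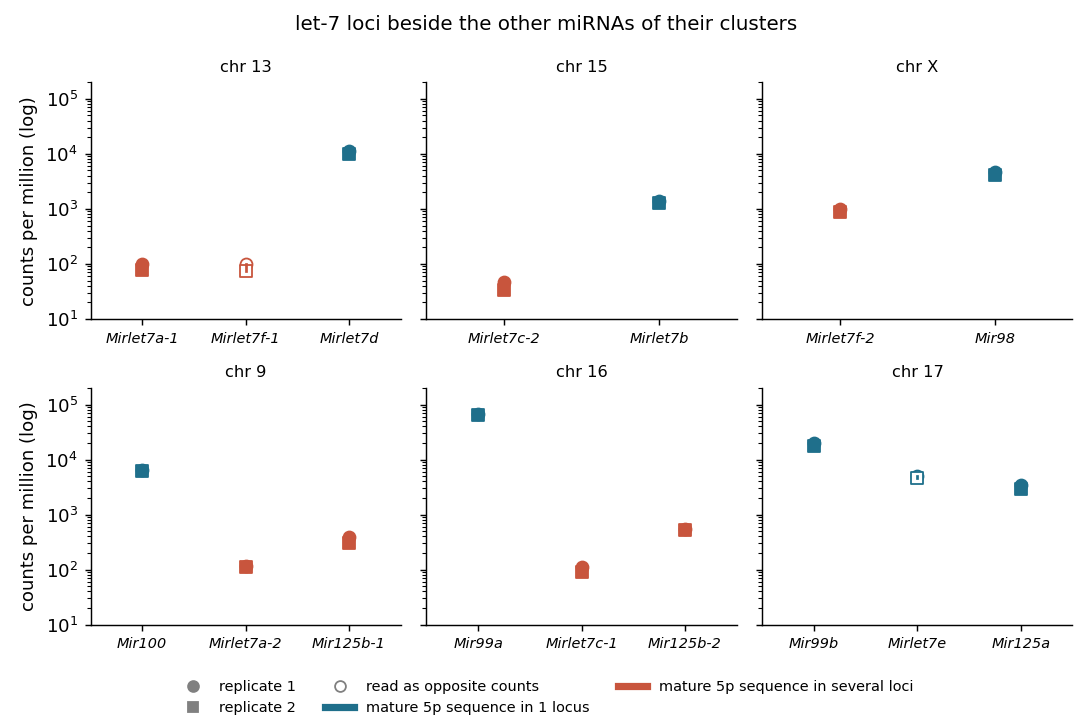
Level in CPM (log axis) of the miRNAs of 6 let-7 clusters, 1 panel per chromosome, with circles for replicate 1, squares for replicate 2 and open symbols for loci read from opposite-strand counts. Loci whose mature strand has a copy (red) lie below those without one (blue) in each panel that holds both, and Mirlet7e lies between Mir99b and Mir125a.

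Rows outside the rule that carry a let-7 name or seed held few counts. Mir7j on chromosome 3, whose mature strand RefSeq names let-7j, held 467 counts (83.8 CPM) and 358 counts (59.3 CPM). Its strand is uGAGGUAUuaguuugugcuguuau, which over 22 nucleotides differs from let-7i by G8U only, a change in the last base of the seed. Mirlet7i exceeded it 555-fold (log2 9.12 ± 0.184). Of the rows with the let-7 seed, Mir7k (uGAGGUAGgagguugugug) held 1 count in replicate 1 and 0 in replicate 2, and Mir1961 (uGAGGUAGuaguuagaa) held 0 in both. A count of 0 allows up to 3 counts, or 0.539 CPM in replicate 1 and 0.497 CPM in replicate 2.

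The libraries were compared gene by gene with a two-sided exact binomial test on the counts, Benjamini-Hochberg adjusted over the 288 genes whose mean reached 10 CPM. It compares the reads of these libraries, not conditions. None of the 10 let-7 rows passed an adjusted p under 0.05 with a ratio of 1.5, against a background of 5.9% of all genes (17 of 288). By direction the background was 4.86% higher in replicate 1 and 1.04% higher in replicate 2. At any ratio 9 of 10 let-7 rows had an adjusted p under 0.05, and the same 9 had an unadjusted p under 0.05. The background for any ratio is 61.5%. At any ratio the test passes small differences where counts are high, so this share depends on depth. The median absolute log2 ratio was 0.18 for the 10 rows and 0.16 for all 288 genes. Counted over all 10 rows, 8 passed and were higher in replicate 1, against 43.1% of all genes (124 of 288). Only Mirlet7g passed and was higher in replicate 2, against 18.4% of all genes (53 of 288). Of the 177 genes that passed, 124 were higher in replicate 1 and 53 in replicate 2, so most genes leaned the same way. Mirlet7a-2 was the row that did not pass (116 against 109.6 CPM, adjusted p = 0.385 in the exact binomial test).

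The sizes were small. Log2 ratios of replicate 1 over replicate 2 ran from -0.08 for Mirlet7g to 0.51 for Mirlet7c-2, a ratio of 1.43. The median of the 10 rows was 0.18, beside 0.10 for all 288 genes. TMM scaling, which brings the median of all genes to 0.00, gave a let-7 median of 0.08 and turned Mirlet7a-2 from 0.08 to -0.01. No other row changed its sign under TMM or DESeq2 scaling. Across all genes edgeR, after TMM scaling, gave a common coefficient of variation of 0.125 between the libraries. That is an SD of 0.26 for a log2 ratio, with counting noise left out. The ratios on total counts of 7 of 10 let-7 rows lay within that SD, as did those of 70.8% of all genes. The 3 beyond it on total counts, Mirlet7c-2, Mirlet7a-1 (0.38) and Mirlet7c-1 (0.30), were copied loci with at most 631 counts in a library. With TMM scaling Mirlet7c-2 (0.42) and Mirlet7a-1 (0.28) stayed beyond it and Mirlet7c-1 (0.20) lay within it. Counting noise is larger in rows of few counts, so the SD is too small for these 3.

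Of the counts of Mirlet7g and Mirlet7i together, Mirlet7g made up 48.6% in replicate 1 and 53.96% in replicate 2. The exact 95% intervals were 48.4 to 48.7 and 53.8 to 54.1. This share does not depend on how the libraries are scaled. Markers of other cell types also differed between the libraries: Mir122 of hepatocytes held 201 CPM in replicate 1 and 591 CPM in replicate 2, and the erythroid sum of Mir451a and Mir144 was 1159 and 897 CPM. Their part in the let-7 ratios was not tested.

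**Figure D5:**
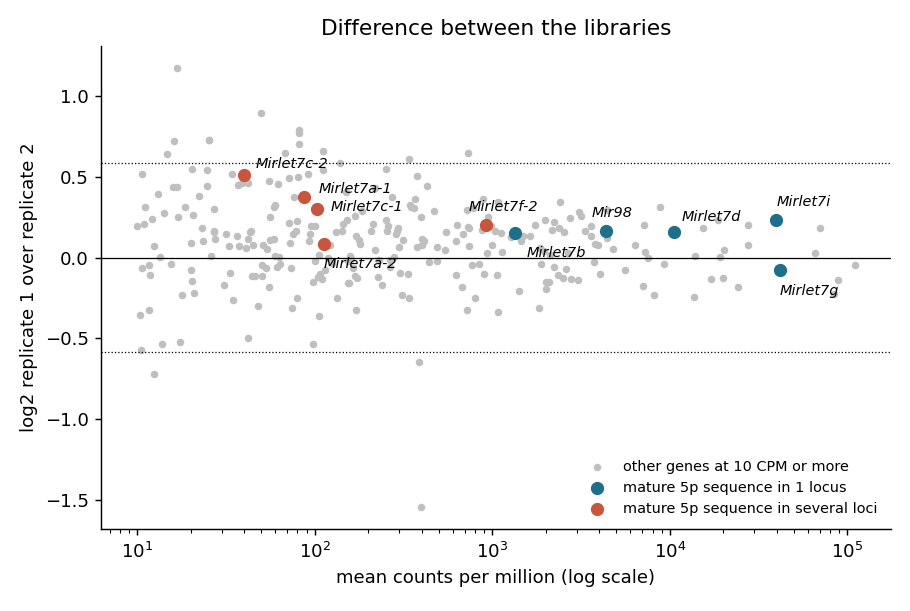
Log2 ratio of replicate 1 over replicate 2 against the mean level in CPM (log axis) for 288 genes, with unique let-7 rows in blue, copied let-7 rows in red and the ratio of 1.5 as dotted lines. All 10 let-7 rows lie inside the dotted lines, and Mirlet7g alone lies below 0.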

How the data were processed

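MicroRNA-seq of RNAs below 30 nucleotides was made from 2 heart libraries. Raw counts of reads for each miRNA gene were deposited by the authors. Notes that accompany the deposited files name mm10 as assembly and GENCODE M4 as annotation. For aligner, counter and trimming, the names were not given in the sources used here. The 1973 gene rows give counts on both strands, sense and opposite. Read classes (unmapped, multi-mapping, no feature) stayed out of totals; reads with no feature were 3.60% and 2.92%.

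CPM were computed on total sense counts, also for the 2 loci read from opposite counts. Symbols, coordinates and hosts were taken from GENCODE M21 (mm10), in which 1894 of 1973 identifiers matched. Sequences and copies came from the RefSeq miRNA table of GRCm38.p6, which holds 1005 hairpins and is not complete. Log2 ratios used a pseudocount of 1 CPM. The exact binomial test took total counts as offset and was tested on simulated data. A step between loci was said to exceed the spread where its mean log2 ratio was larger than its SD and of 1 sign in both libraries. TMM factors and the common dispersion came from edgeR 4.0.16 (intercept-only model), with size factors from DESeq2 1.42.0 as an alternative, both on genes at 10 CPM or more, in R 4.3.3. Other steps used Python 3.11.15, scipy 1.17.1 and pandas 2.3.3.

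Genes named were all members, the miR-99, miR-100 and miR-125 rows of their clusters, other rows with the let-7 name or seed, and fixed cell type markers. Members and lists were chosen with earlier results of these data known. Nothing in the labels says whether the biosamples were separate litters, so the spread may be partly technical.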

Additional observations from a re-analysis of the deposited data

Results flagged for a closer look

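Opposite-strand counts of the 10 member rows enter none of the values of the report, only the alternative that counts both strands. Mirlet7b held 10 of them in replicate 1 and 7 in replicate 2, above the 3 counts that a count of 0 allows. They were 0.126% and 0.0904% of the row's counts on both strands. No gene model lies across Mirlet7b on the other strand in GENCODE M21. The other 9 rows held at most 1 opposite count in a library. Of 274 rows at 10 CPM or more with no miRNA gene model on the other strand, 4 held more than 3 opposite counts in both libraries.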

How the results depend on the processing

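The let-7 share of 9.92% became 9.42% with both strands counted and 11.1% without Mir335, the most abundant gene, in the total. With Mirlet7e and Mirlet7f-1 added it was 9.88%, but there the total also took in the opposite-strand counts of all rows. That lower value therefore does not mean that these loci reduce the share. The share at unique loci became 92.8% without Mirlet7g and Mirlet7i, an alternative chosen after seeing the data. The log2 gap between unique and copied loci became 6.23 when Mirlet7e and Mirlet7f-1 joined their classes. The log2 ratio of Mirlet7a-2 over Mir100 stayed at -5.82 with a pseudocount of 0.5, a change larger only than its very small spread. Without a minimum ratio 9 of the 10 rows differed between the libraries (61.5% of all genes), in place of 0 (5.9% of all genes). The median ratio of the family became 0.082 with DESeq2 size factors. None of these results reversed under the alternatives run; the ratio of Mirlet7a-2 alone, among the 10 rows, turned sign with the scaling, to -0.01 with TMM. Leaving out replicate 1 gave a let-7 share of 9.61% and leaving out replicate 2 gave 10.23%. How many multi-mapping reads belong to the copied loci is not known from these files, which limits their levels at any depth, and with 1 group of 2 libraries no biological difference could be tested. No paired analysis was possible because the labels give a single group.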
